A study of Homo sapiens with 9 samples.

Results

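The miR-99/100 and miR-125 families are represented here by 6 miRNA hairpins, hsa-mir-99a, hsa-mir-99b, hsa-mir-100, hsa-mir-125a, hsa-mir-125b-1 and hsa-mir-125b-2, chosen by name from the 1485 hairpins of the count table. They were followed in 9 small RNA libraries from 2 human cell lines. In HEK293E, which derives from the human embryonic kidney line HEK293, siGFP, siControl and siERH-3 have 2 libraries each (replicates 1 and 2), and siERH-5 has replicate 2 only. In K562, an erythroid-like leukaemia line, siGFP and siERH-5 have a single library each. siERH-3 and siERH-5 are siRNAs against ERH, a small nuclear protein that binds the Microprocessor complex, and siGFP and siControl are control siRNAs. HEK293E cells were transfected by lipid reagent on days 0 and 3 and harvested on day 5. K562 cells were electroporated once, on day 0, and harvested on day 4. Cell line, procedure and time of harvest can therefore not be told apart. Nothing in the labels says that replicates are separate cultures, so p-values measure the spread between these libraries, which may be technical.

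A miRNA is cut from a hairpin in a longer transcript by Microprocessor and then by Dicer, and the mature strand is loaded into an Argonaute protein. Bases 2 to 8 of the mature strand, the seed, pair with target mRNAs, so miRNAs with 1 seed form a family. The miR-99/100 family is known for targets in mTOR and IGF signalling, and the miR-125 family, related to lin-4 of worms, for roles in blood cell development and differentiation. In vertebrates hairpins of both families lie beside a let-7 hairpin in conserved clusters, each within a longer primary transcript.

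The sequences are shown because the seeds define both families and because the few bases that differ decide whether reads of 2 members can be told apart. All were taken from RefSeq (GRCh38.p14), run 5′ to 3′, and have the seed in capitals.
hsa-miR-99a-5p: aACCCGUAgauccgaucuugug
hsa-miR-99b-5p: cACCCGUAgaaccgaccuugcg
hsa-miR-100-5p: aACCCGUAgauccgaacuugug
hsa-miR-125a-5p: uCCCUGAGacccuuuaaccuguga
hsa-miR-125b-5p: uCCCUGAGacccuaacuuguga
hsa-let-7e-5p: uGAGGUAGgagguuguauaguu
hsa-let-7c-5p: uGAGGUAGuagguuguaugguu
hsa-let-7a-5p: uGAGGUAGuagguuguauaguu

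The 3 members of the miR-99/100 family share the seed ACCCGUA, and miR-125a and miR-125b share CCCUGAG. Positions are counted from 1 at the 5′ end, with the base of the first-named miRNA first. miR-99a-5p and miR-100-5p differ at 1 of 22 positions, U16A. miR-99a-5p and miR-99b-5p differ at 4 positions, A1C, U11A, U16C and U21C. miR-125a-5p and miR-125b-5p have the first 13 bases in common. hsa-mir-125b-1 and hsa-mir-125b-2 give the same miR-125b-5p, so most of their reads cannot be assigned to either. Among RefSeq mature miRNAs, hsa-miR-4319 also carries the miR-125 seed, and it was not analysed here.

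The hairpins lie in 3 clusters (GENCODE 29, GRCh38). On chromosome 19, plus strand, hsa-mir-99b (51692612 to 51692681), hsa-let-7e (51692786 to 51692864) and hsa-mir-125a (51693254 to 51693339) lie within introns of the protein-coding gene SPACA6 and opposite the lincRNA SPACA6P-AS. On chromosome 21, plus strand, hsa-mir-99a (16539089 to 16539169), hsa-let-7c (16539828 to 16539911) and hsa-mir-125b-2 (16590237 to 16590325) lie within introns of the lincRNA MIR99AHG. On chromosome 11, minus strand, hsa-mir-100 (122152229 to 122152308), hsa-let-7a-2 (122146522 to 122146593) and hsa-mir-125b-1 (122099757 to 122099844) lie within introns of the non-coding transcript MIR100HG. The clusters differ in spacing. Between the miR-99/100 and the miR-125 hairpin lie 572 bases on chromosome 19, 51067 on chromosome 21 and 52384 on chromosome 11.

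The precursors are printed because Microprocessor and Dicer act on the hairpin, whose stem and loop differ between members that share a seed. RefSeq hairpins are given with both mature arms in capitals.
hsa-mir-99a: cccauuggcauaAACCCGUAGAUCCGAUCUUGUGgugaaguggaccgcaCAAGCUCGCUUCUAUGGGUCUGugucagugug
hsa-mir-99b: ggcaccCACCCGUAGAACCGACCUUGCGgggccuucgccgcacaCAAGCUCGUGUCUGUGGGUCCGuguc
hsa-mir-100: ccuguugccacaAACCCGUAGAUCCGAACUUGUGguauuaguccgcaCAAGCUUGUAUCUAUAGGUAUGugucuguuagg
hsa-mir-125a: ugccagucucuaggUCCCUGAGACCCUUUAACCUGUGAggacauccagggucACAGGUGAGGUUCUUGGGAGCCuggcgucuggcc
hsa-mir-125b-1: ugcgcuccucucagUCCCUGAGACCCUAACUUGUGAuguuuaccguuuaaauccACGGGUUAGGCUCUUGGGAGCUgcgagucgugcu

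The predicted folding energy of these 5 hairpins ran from -46.2 kcal/mol for hsa-mir-125a to -25.7 kcal/mol for hsa-mir-100, against a median of -36.4 kcal/mol over 1560 RefSeq hairpins. hsa-mir-125b-1 was at -41.1 kcal/mol, hsa-mir-99a at -39.5 kcal/mol and hsa-mir-99b at -29.4 kcal/mol. The loop between the mature arms was 13 bases long in hsa-mir-100 and 18 bases long in hsa-mir-125b-1, with the others between. GC content was highest in hsa-mir-99b (67.1%) and lowest in hsa-mir-100 (46.2%).

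The libraries held 2609929 to 3320017 counts, and the members took 1.56% to 2.49% of them in HEK293E, and 1.01% with siGFP and 1.15% with siERH-5 in K562. All 6 members passed the minimum mean of 10 counts in HEK293E, and 5 passed it in K562, where hsa-mir-100 had 6 and 11 counts. The 5 blood-lineage marker hairpins (such as hsa-mir-451a and hsa-mir-223) summed to 123262 to 130027 counts per 1000000 (RPM) in K562 and to 1126 to 1637 RPM in HEK293E. Marker sums were taken from raw counts, and RPM levels of the members below are the deposited ones. The 4 mesenchymal markers reached 2401 to 3347 RPM in K562 and 176 to 394 RPM in HEK293E, the 3 epithelial markers 242 to 353 and 338 to 647 RPM, and the liver marker was the lowest of the 4 lists in both lines. No listed marker was at 0 in every library of a line. These libraries hold no mRNA, so the loss of ERH was not checked.

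HEK293E controls held 5 of the 6 members at similar abundance and hsa-mir-100 far below them. Levels are counts per 1000000 after TMM scaling of the 7 HEK293E libraries (CPM), mean ± SD over 4 control libraries. They count whole mature miRNAs, so they are not per length, and adapter ligation favours some miRNA ends over others. hsa-mir-99a stood at 5195 ± 403 CPM, hsa-mir-99b at 4567 ± 526, hsa-mir-125b-2 at 4247 ± 545, hsa-mir-125b-1 at 4056 ± 541 and hsa-mir-125a at 3258 ± 897. Each neighbour in that order overlapped the next in its range over the 4 libraries. hsa-mir-100, at 121 ± 36.0 CPM, lay below all of them, and its count was 1.78% to 4.36% of that of hsa-mir-99a over the 7 HEK293E libraries. The counts of the 2 miR-125b copies were nearly equal, with hsa-mir-125b-1 at 0.948 to 0.977 times hsa-mir-125b-2 over all 9 libraries. They are not independent values, and how reads that fit both were counted is not given in the sources used here.

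K562 expressed the chromosome 19 pair and little of the other 4 members. With siGFP, hsa-mir-125a stood at 5556 RPM and hsa-mir-99b at 4327 RPM, ranking 45 and 52 among the hairpins. hsa-mir-99a was at 93.7 RPM (244 counts), hsa-mir-125b-2 at 51.2 RPM (133 counts), hsa-mir-125b-1 at 49.3 RPM (128 counts) and hsa-mir-100 at 2.68 RPM (6 counts). The same hairpins in the 4 HEK293E controls averaged 4949 ± 876 RPM for hsa-mir-99a, 4042 ± 791 for hsa-mir-125b-2, 3863 ± 784 for hsa-mir-125b-1 and 118 ± 46.9 for hsa-mir-100. For each of these 4 the K562 library was below every HEK293E control.

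The size of these differences depended on how libraries of unlike composition were scaled. TMM was here computed over the 4 HEK293E controls and the K562 siGFP library, and ratios are of means with 1 CPM added. On TMM hsa-mir-125b-2 was 36.7-fold, hsa-mir-125b-1 36.5-fold, hsa-mir-99a 24.6-fold and hsa-mir-100 19.2-fold higher in HEK293E. On library totals these were 78.0-, 77.4-, 52.5- and 35.9-fold higher. So 4 of 6 members were at least 2-fold higher in HEK293E on TMM, where 32.6% of 745 hairpins were, and on totals, where 55.8% were. hsa-mir-125a was 3.85-fold higher in K562 on TMM and 1.79-fold on totals, above all 4 HEK293E controls on both. hsa-mir-99b was 2.13-fold higher in K562 on TMM, and on totals it was 4327 RPM against 4344 ± 781 RPM, within the HEK293E range. The median member was 4.44 higher in HEK293E on the log2 scale with TMM, beside 0.27 for all 745 hairpins, for which totals gave 1.25. K562 has 1 control library, so no test was possible. let-7c, the partner of hsa-mir-99a on chromosome 21, was 58.6-fold higher in HEK293E on TMM. The direction for hsa-let-7e turned with the scaling, from 1.55-fold higher in K562 on TMM to 1.38-fold higher in HEK293E on totals, where K562 lay within the HEK293E range.

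Within each family the contrast between lines does not rest on scaling. hsa-mir-99b made up 44.6% to 49.0% of the miR-99/100 family counts in HEK293E controls and 97.8% in both K562 libraries, and hsa-mir-99a 49.8% to 54.4% and 2.11% to 2.17%. Of the miR-125 family, counted with 1 copy of miR-125b, hsa-mir-125a made up 38.8% to 48.2% in HEK293E controls and 99.1% in K562 with siGFP. The K562 share lay outside the HEK293E range for each of these hairpins.

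**Figure D1:**
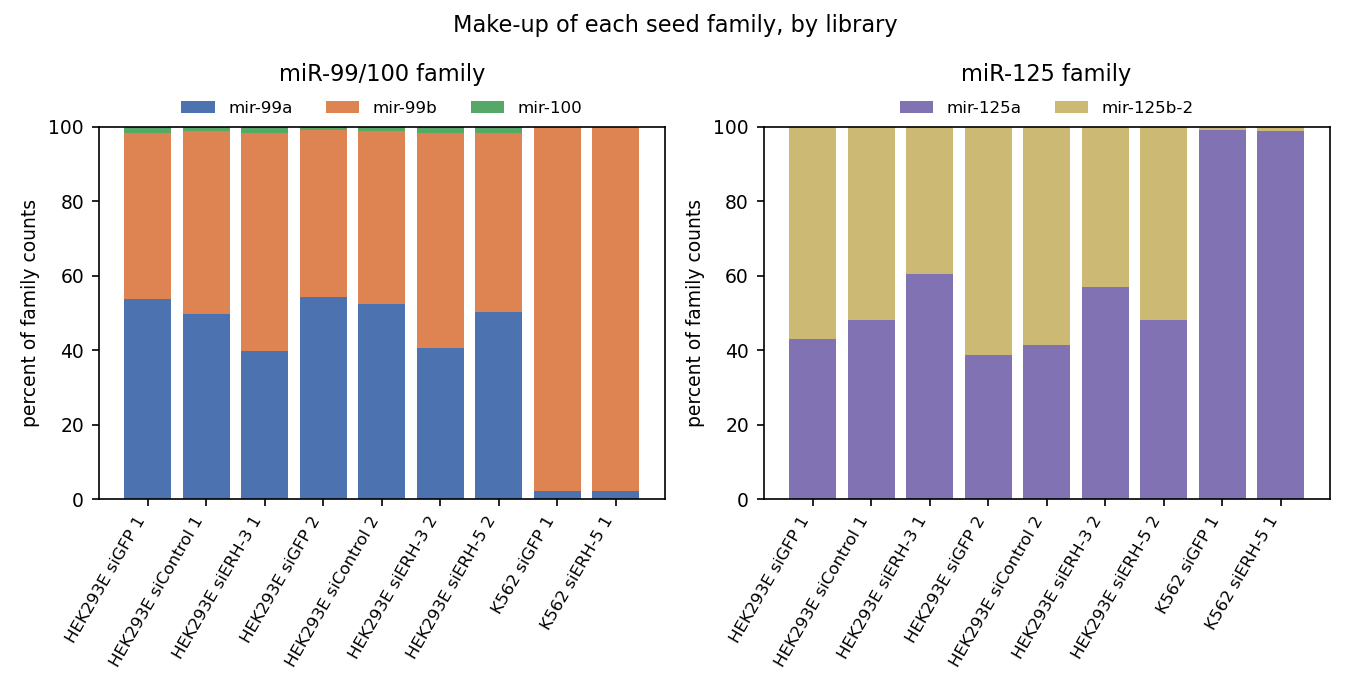
Stacked bars give each hairpin's percent of the counts of its seed family (y axis) in each of the 9 libraries (x axis, siRNA and replicate number), with hsa-mir-125b-2 standing for both miR-125b copies. hsa-mir-99b and hsa-mir-125a fill nearly the whole bar in K562, and in HEK293E the hsa-mir-99a and hsa-mir-125b-2 segments are shorter in both siERH-3 libraries than in every control, with siERH-5 inside the control range.

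With siERH in HEK293E, hsa-mir-99a and both miR-125b hairpins fell, while hsa-mir-99b, hsa-mir-100 and hsa-mir-125a did not pass the test. Thus 3 of 6 members were lower and 0 higher by edgeR's quasi-likelihood test (adjusted p under 0.05), where 16.2% of 773 hairpins were lower and 23.8% higher. On TMM the same 3 members were lower in each of 3 siERH libraries than in all 4 controls, which held for 19.1% of hairpins. On the deposited RPM the groups overlapped for both miR-125b hairpins, with siERH-5 above siGFP replicate 2. The members' median log2 fold change was -0.41, beside -0.01 over all hairpins tested. Since the 2 miR-125b hairpins share their reads, these 3 calls rest on 2 mature miRNAs, and with 1 copy per hairpin name the median over 5 members was -0.22, beside 0.02 over all. On library totals the median of the 6 was -0.23, beside 0.19 over all.

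hsa-mir-99a, on chromosome 21, changed most. Its level was 5723 and 4815 CPM with siGFP and 5285 and 4957 with siControl (replicates 1 and 2), and 2783 and 2672 with siERH-3 and 3889 with siERH-5. The groups did not overlap, and siERH-5 lay nearer to the controls than siERH-3 did. By edgeR the log2 fold change was -0.74 ± 0.17 (SE), with an adjusted p of 0.00767, and hsa-mir-99a passed in each of 20 settings tried. Against the controls of the same replicate the log2 differences were -0.98 and -0.87 for siERH-3 and -0.33 for siERH-5.

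The 2 copies of miR-125b moved alike. hsa-mir-125b-2, 51067 bases from hsa-mir-99a, was at 4575 and 3474 CPM with siGFP, 4677 and 4260 with siControl, 2804 and 2507 with siERH-3 and 3251 with siERH-5. hsa-mir-125b-1, on chromosome 11, was at 4409 and 3295 CPM with siGFP, 4474 and 4048 with siControl, 2667 and 2401 with siERH-3 and 3081 with siERH-5. In both the highest siERH library, siERH-5, came close to the lowest control, siGFP replicate 2. The log2 fold changes were -0.57 (SE 0.16, edgeR adjusted p = 0.0183) and -0.58 (SE 0.17, edgeR adjusted p = 0.018). On library totals neither passed (-0.39 and -0.40, edgeR adjusted p = 0.117 and 0.116), and neither did with siControl replicate 1, siERH-3 replicate 1 or siERH-3 replicate 2 left out.

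The chromosome 19 pair did not pass the test in either direction. hsa-mir-99b was at 4739 and 3958 CPM with siGFP, 5194 and 4375 with siControl, 4092 and 3782 with siERH-3 and 3715 with siERH-5, so 2 of 3 siERH libraries were below all controls (log2 fold change -0.24, SE 0.15, edgeR adjusted p = 0.221). hsa-mir-125a was at 3461 and 2207 CPM with siGFP, 4357 and 3008 with siControl, 4278 and 3321 with siERH-3 and 3002 with siERH-5 (0.12, SE 0.23, edgeR adjusted p = 0.701). Its siERH libraries all lay inside the control range. Against the mean of the controls of the same replicate, hsa-mir-99b differed by -0.28 and -0.14 with siERH-3 and by -0.16 with siERH-5, and each library was below both of those controls. hsa-mir-125a differed by 0.14 and 0.37 with siERH-3 and by 0.22 with siERH-5, and siERH-3 replicate 2 alone was above both. With the replicate block neither passed (edgeR adjusted p = 0.170 for hsa-mir-99b and 0.224 for hsa-mir-125a). In hsa-mir-125a replicate 1 was above replicate 2 for every siRNA with both, and siControl above siGFP in both replicates.

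hsa-mir-100, the least abundant member, was at 170 and 85.6 CPM with siGFP, 123 and 106 with siControl, 121 and 107 with siERH-3 and 122 with siERH-5. The controls spanned the siERH libraries, and edgeR gave a log2 fold change of -0.06 ± 0.24 (SE) with an adjusted p of 0.866. Its direction changed with the scaling, to 0.10 on library totals.

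**Figure D2:**
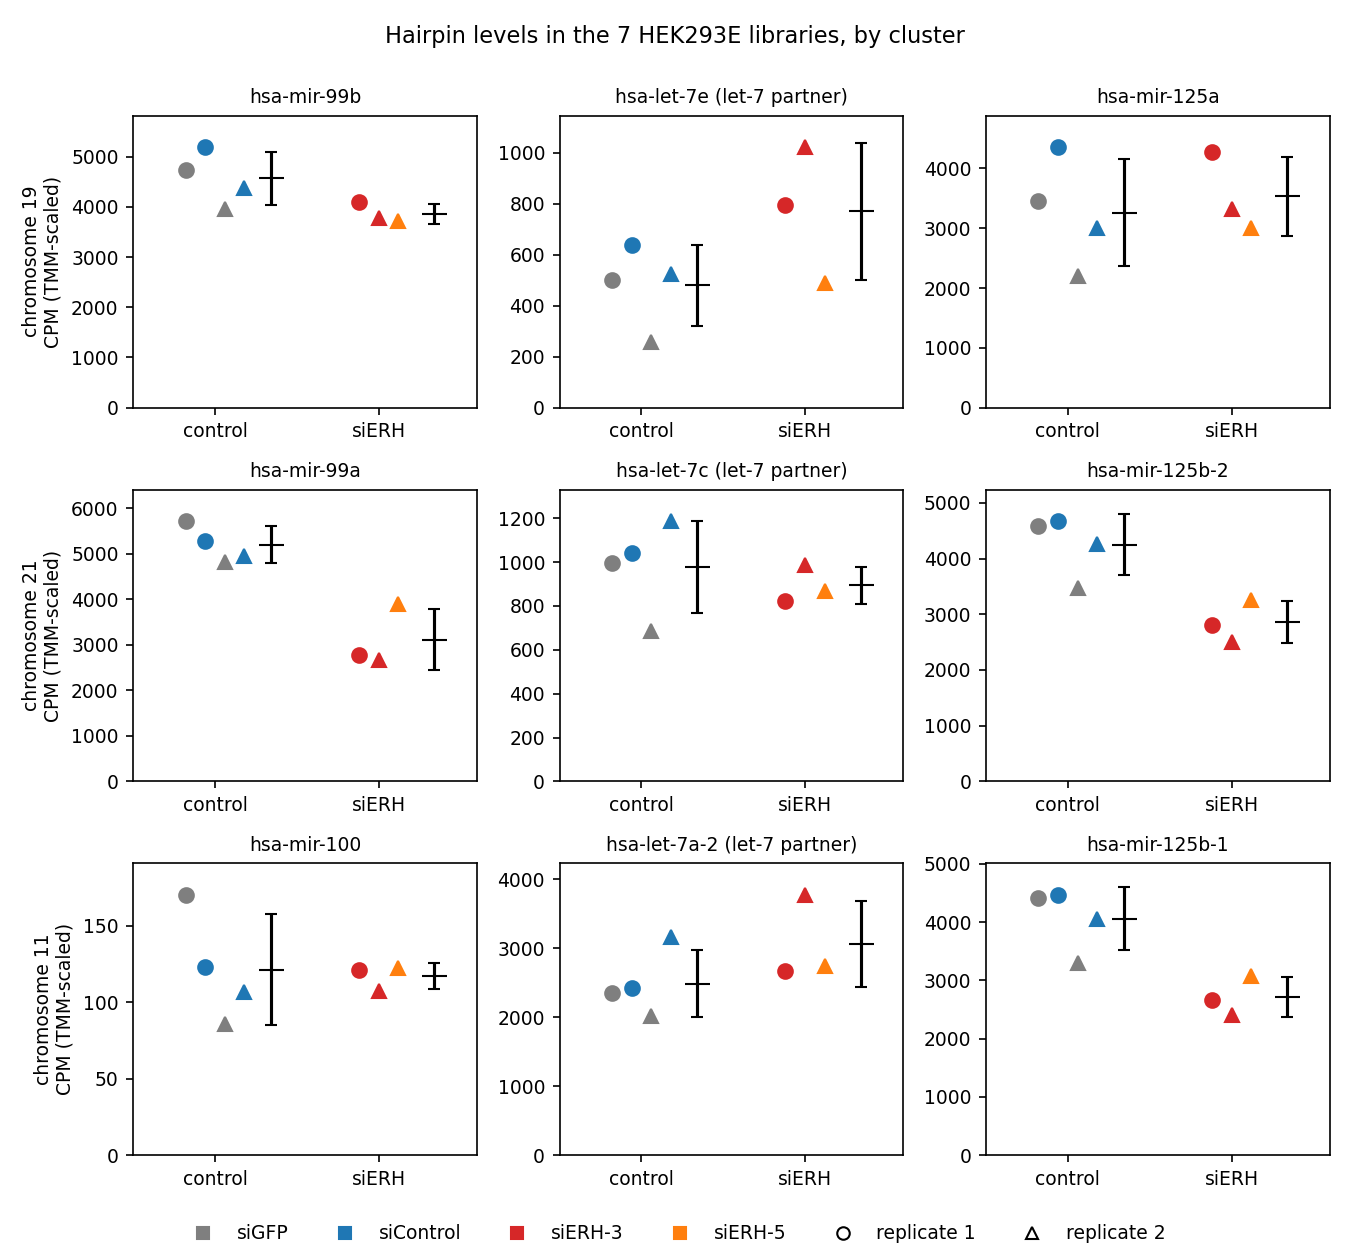
Each panel plots 1 hairpin's TMM-scaled CPM (y axis, from 0) in 4 control and 3 siERH libraries of HEK293E, with colour for the siRNA, shape for the replicate and a bar for mean ± SD, and rows are clusters. The siERH points lie below all control points for hsa-mir-99a, hsa-mir-125b-1 and hsa-mir-125b-2 and overlap the controls in the other 6 panels.

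None of the 3 let-7 partners passed the test. hsa-let-7e, between hsa-mir-99b and hsa-mir-125a, was at 0.68 on the log2 scale (SE 0.31, edgeR adjusted p = 0.105). Against the controls of the same replicate its log2 differences were 0.50 and 1.47 for siERH-3 and 0.41 for siERH-5. With a library left out its log2 fold change ranged from 0.43 to 0.93, and it passed in none of these fits. With the replicate number as a block it passed at 0.77 (edgeR adjusted p = 0.0322), while the same 3 members were called lower, where 20.6% of hairpins were lower and 28.1% higher. hsa-let-7c, next to hsa-mir-99a, was at -0.13 (SE 0.20, edgeR adjusted p = 0.634), and this direction changed to 0.05 on library totals. hsa-let-7a-2, between hsa-mir-100 and hsa-mir-125b-1, was at 0.30 (SE 0.19, edgeR adjusted p = 0.247). Reads of let-7a-5p are shared with other let-7a hairpins, so hsa-let-7a-2 does not stand for chromosome 11 alone. Neither of the 2 relatives of miR-99/100 outside these clusters, hsa-mir-10a and hsa-mir-10b, passed the test.

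With siERH-3 alone, 2 libraries against the same 4 controls, the same 3 members were called lower and 0 higher, where 11.5% of 759 hairpins were lower and 19.1% higher. hsa-mir-99a was at -0.92 (SE 0.17, edgeR adjusted p = 0.00636), hsa-mir-125b-1 at -0.67 (SE 0.19, edgeR adjusted p = 0.0328) and hsa-mir-125b-2 at -0.67 (SE 0.19, edgeR adjusted p = 0.0322). With siControl replicate 1 left out hsa-mir-99a alone passed, and with siERH-3 replicate 1 or 2 left out no member did. In hsa-mir-99a the edgeR adjusted p was then 0.072 and 0.0908, with log2 fold changes of -0.93 and -0.88. Of the let-7 partners, hsa-let-7e was at 0.93 (SE 0.31, edgeR adjusted p = 0.0521), and it passed on library totals (edgeR adjusted p = 0.0382), with DESeq2 (adjusted p = 0.0473) and with the replicate block (edgeR adjusted p = 0.0142). siERH-5 has 1 HEK293E library and no replicate check, and its difference from siERH-3 was not tested.

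The control siRNAs give the background. Between siControl and siGFP, 2 libraries each, edgeR called 0 of 6 members and 0 of 730 hairpins, with 24 hairpins at an unadjusted p under 0.05, and DESeq2 called 4 hairpins and no member. hsa-mir-99a differed by -0.05 (SE 0.25), hsa-mir-125b-1 by 0.13 (SE 0.27) and hsa-mir-125b-2 by 0.14 (SE 0.26). hsa-mir-125a differed by 0.36 (SE 0.33), more than its siERH change. With the replicate number as a block, edgeR called 61 hairpins lower (8.36%) and 72 higher (9.86%), among them hsa-mir-125a (0.38, adjusted p = 0.00592), hsa-let-7e (0.67, adjusted p = 1.39e-05), hsa-let-7c (0.41, adjusted p = 0.00638) and hsa-let-7a-2 (0.34, adjusted p = 0.0179).

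**Figure D3:**
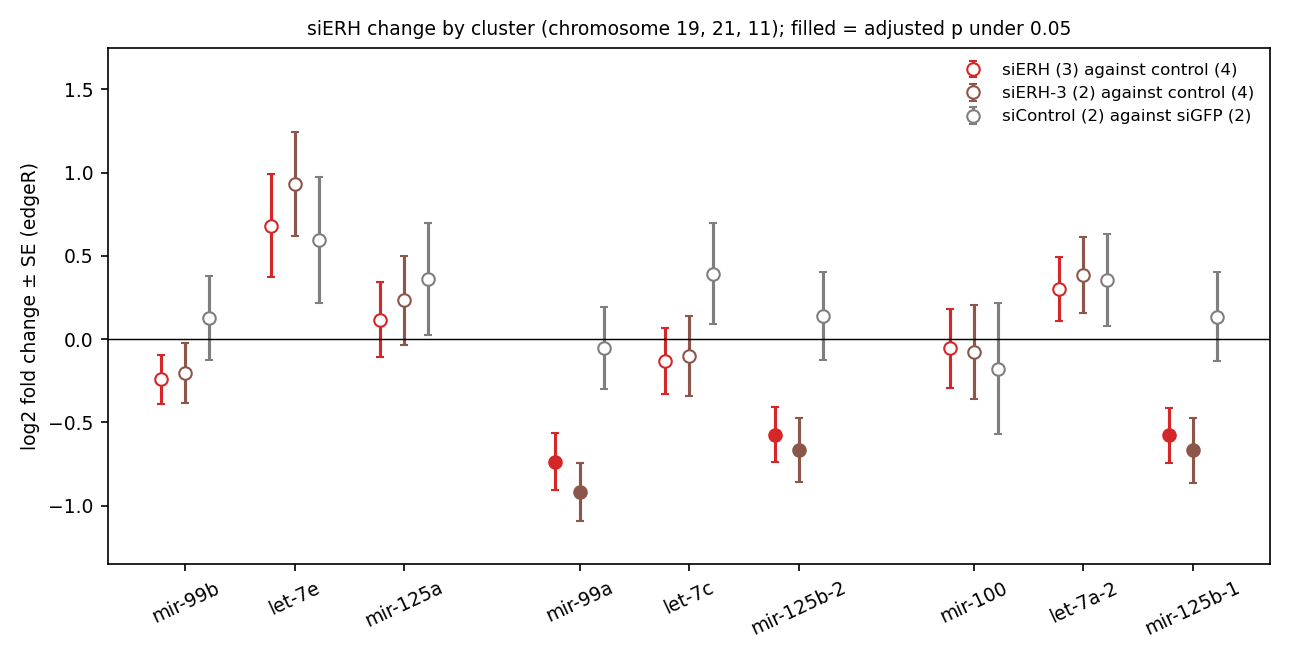
Points give edgeR log2 fold changes with SE (y axis) of the 6 members and their 3 let-7 partners (x axis, grouped by cluster) for siERH, siERH-3 and the control siRNAs, filled where the adjusted p is under 0.05. The filled points are those of mir-99a, mir-125b-2 and mir-125b-1 under siERH and siERH-3.

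Ratios within a library do not depend on its scaling and ask whether hairpins of 1 cluster changed to unlike degrees. They are log2 ratios of counts, mean ± SD over 4 control and 3 siERH libraries, and the groups were set against each other by exact permutation (two-sided, all 35 splits), whose smallest possible p is 0.0571. No ratio could therefore reach an unadjusted p under 0.05 by this test, and p-values are also given adjusted over the 9 ratios tested.

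On chromosome 19 the ratio of hsa-mir-99b to hsa-mir-125a was 0.45 and 0.84 with siGFP, 0.25 and 0.54 with siControl, -0.06 and 0.19 with siERH-3 and 0.31 with siERH-5. It averaged 0.52 ± 0.24 in controls and 0.14 ± 0.19 with siERH, a difference of -0.38 (exact p = 0.114, adjusted p = 0.147). siERH-5 overlapped the controls. Within each replicate the siERH mean was lower, by -0.42 and -0.44, and siControl was also below siGFP in each replicate. On chromosome 21 the ratio of hsa-mir-99a to hsa-mir-125b-2 was 0.32 and 0.47 with siGFP, 0.18 and 0.22 with siControl, -0.01 and 0.09 with siERH-3 and 0.26 with siERH-5, a difference of -0.18 (exact p = 0.171, adjusted p = 0.193). The groups overlapped, and without siERH-3 replicate 1 the difference was -0.12. Here too siControl was below siGFP in each replicate. On chromosome 11 the ratio of hsa-mir-100 to hsa-mir-125b-1 was -4.69 and -5.27 with siGFP, -5.19 and -5.25 with siControl, -4.46 and -4.49 with siERH-3 and -4.66 with siERH-5. All siERH values were above all controls, by 0.56 in the means (exact p = 0.0571, the smallest possible, adjusted p = 0.147), with siGFP replicate 1 close to siERH-5. Because the miR-125b copies share reads, the last ratio does not stand for chromosome 11 alone, nor does the ratio of hsa-mir-99a to hsa-mir-125b-2 for chromosome 21 alone.

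**Figure D4:**
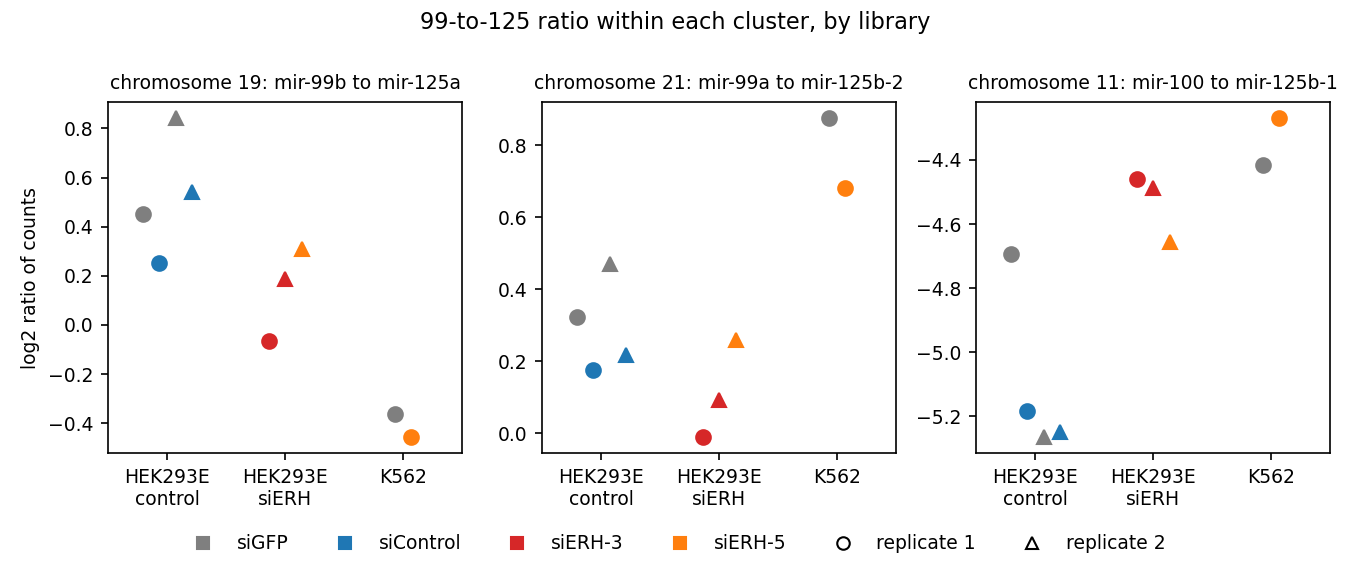
Points give the log2 ratio of counts of the miR-99/100 to the miR-125 hairpin (y axis, scales differ between panels) in HEK293E control, HEK293E siERH and K562 libraries, 1 panel per cluster, with colour for the siRNA and shape for the replicate. On chromosome 11 the siERH values of -4.66 to -4.46 lie above the controls, and on the others siERH-5 overlaps them.

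Relative to the let-7 partner, the mean ratio was lower with siERH in 6 of 6 ratios, none of which passed the test. Between the control siRNAs the same direction was seen, with siControl below siGFP in both replicates for all 6. hsa-mir-99b to hsa-let-7e was 3.24 and 3.94 with siGFP and 3.03 and 3.06 with siControl. hsa-mir-100 to hsa-let-7a-2 was -3.79 and -4.55 with siGFP and -4.30 and -4.89 with siControl. The 6 ratios are not independent, because each let-7 partner is the denominator of a pair of them and the miR-125b copies share reads. hsa-mir-99b to hsa-let-7e was below the control range in all 3 siERH libraries, by -0.93 in the means, and hsa-mir-125b-1 to hsa-let-7a-2 by -0.88 (exact p = 0.0571 and adjusted p = 0.147 for each). hsa-mir-99a to hsa-let-7c differed by -0.65, hsa-mir-125a to hsa-let-7e by -0.55 and hsa-mir-125b-2 to hsa-let-7c by -0.47 (exact p = 0.114 and adjusted p = 0.147 for each), with overlap between the groups. hsa-mir-100 to hsa-let-7a-2 differed by -0.31 (exact p = 0.4). Without siERH-3 replicate 2 the difference was -0.27 for hsa-mir-125a to hsa-let-7e, -0.30 for hsa-mir-125b-2 to hsa-let-7c and -0.090 for hsa-mir-100 to hsa-let-7a-2, the last of which was -0.11 without siGFP replicate 1.

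In K562 the members stayed within 2-fold between siGFP and siERH-5, 1 library each, so no test was possible and intervals cover counting error only. Past 2-fold were 6.81% of 646 hairpins lower and 10.1% higher, and 0 of the 5 members measured. hsa-mir-99a went from 244 counts to 348 between the siGFP and siERH-5 libraries, a log2 ratio of -0.11 on TMM (95% interval -0.35 to 0.13). The miR-125b hairpins had 128 and 212 counts (hsa-mir-125b-1) and 133 and 217 (hsa-mir-125b-2), with log2 ratios of 0.10 (-0.22 to 0.43) and 0.08 (-0.24 to 0.40). The abundant pair was measured more precisely. hsa-mir-99b had 11317 and 15713 counts, a log2 ratio of -0.15 (-0.19 to -0.12), and hsa-mir-125a 14531 and 21568, a log2 ratio of -0.06 (-0.09 to -0.03). On library totals all 5 were above 0, from 0.13 for hsa-mir-99b to 0.38 for hsa-mir-125b-1, beside a median of 0.37 over all hairpins, against 0.11 on TMM. Scaling therefore set the sign for hsa-mir-99a, hsa-mir-99b and hsa-mir-125a. Of the let-7 partners, hsa-let-7e went from 864 counts to 900, a log2 ratio of -0.57 on TMM (-0.70 to -0.43) and -0.29 on totals. hsa-let-7a-2 went from 3363 to 3436, a log2 ratio of -0.60 on TMM (-0.67 to -0.53) and -0.31 on totals. Both were below 0 on either scale, opposite in sign to their pooled HEK293E values, neither of which passed the main edgeR test. In HEK293E siERH-5, the siRNA used in K562, lay inside the control range for both. hsa-let-7e was there at 490 CPM (controls 259 to 637) and hsa-let-7a-2 at 2735 CPM (controls 2010 to 3163). Against the controls of the same replicate these were 0.41 and 0.12 higher on the log2 scale. hsa-let-7c had only 18 and 26 counts in K562. Within the pair, hsa-mir-99b took 43.8% of the counts of hsa-mir-99b and hsa-mir-125a with siGFP (95% Wilson interval 43.2% to 44.4%) and 42.1% with siERH-5 (41.6% to 42.6%). hsa-mir-99a took 64.7% (59.8% to 69.4%) and 61.6% (57.5% to 65.5%) of its pair with hsa-mir-125b-2, which shares reads with hsa-mir-125b-1.

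Hairpins with the most similar pattern were sought among the 413 hairpins averaging 100 counts or more, by Pearson's r of log2(CPM + 1) over the 7 HEK293E libraries. These points share libraries and the control and siERH groups, so r is a description. hsa-mir-99a was most like hsa-mir-29a (r = 0.979), hsa-mir-1292 (0.964) and hsa-mir-375 (0.946). hsa-mir-125b-1 and hsa-mir-125b-2 were both most like hsa-mir-129-2 (0.987 and 0.988), hsa-mir-1292 (0.984 and 0.982) and hsa-mir-182 (0.979 and 0.974). The 3 members that fell thus had hsa-mir-1292 in common. hsa-mir-99b was most like hsa-mir-181a-1 (0.968), hsa-mir-181a-2 (0.966) and hsa-mir-151a (0.966). hsa-mir-125a was most like hsa-mir-1268b (0.899), hsa-mir-10b (0.874) and hsa-mir-320c-2 (0.870), and hsa-mir-100 like hsa-mir-320b-2 (0.849), hsa-mir-320b-1 (0.847) and hsa-mir-320a (0.840). Among the members, hsa-mir-99a followed hsa-mir-125b-2 of its own cluster (r = 0.950) and hsa-mir-125b-1 of another (0.948), and the pair hsa-mir-99b and hsa-mir-125a, 572 bases apart, had r = 0.516.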

How the data were processed

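The authors deposited raw counts per miRNA hairpin, in which blank cells (2336) were read as 0, and RPM values, which equal the count plus 1 over the library total plus 1485, per 1000000. Hairpin arms were not separated, and spike-in RNAs were not used here, so changes are relative to the other hairpins. The submitters' processing notes name cutadapt, Bowtie2, bedtools and hg38, and the treatment of reads that fit several hairpins or of duplicates is not given in the sources used here. Total counts were 2609929 to 3320017 per library, and 3 counts correspond to 0.904 to 1.149 RPM; intervals cover counting error only.

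Titles gave each library's line, siRNA and replicate. Hairpins averaging 10 counts or more were scaled by TMM and tested with edgeR 4.0.16 (quasi-likelihood, Benjamini-Hochberg over all hairpins, adjusted p under 0.05; R 4.3.3). On simulated data with 773 hairpins, for siERH against control, it called 149 of 200 hairpins changed 2-fold (74.5%), 0 with the wrong sign and 3 unchanged ones. Simulated libraries were drawn independently, with changes in random directions, so deviations shared by libraries of the same replicate were not covered. Alternatives were DESeq2 1.42.0, limma 3.58.1 on log2(RPM + 1), library totals, other count minimums, a GC trend removed, 1 control siRNA alone, replicate 2 alone and each library left out. Replicate numbers match the experimental group in the labels, and deviations of libraries with the same number correlated (r = 0.69, 0.48 and 0.52), so a replicate block was also fitted. Ratios of counts were compared by exact permutation (scipy 1.17.1), with the two-sided p as 2 times the smaller one-sided p. Hairpins were folded with RNAfold 2.7.2.

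The members and lists were chosen with earlier results of these data known. Named are all members, their let-7 partners, hairpins with the same seed, hsa-mir-10a and hsa-mir-10b, and the 3 most correlated hairpins per member.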

Additional observations from a re-analysis of the deposited data

Results flagged for a closer look

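Among the 4 HEK293E control libraries, siGFP replicate 1 stood apart in the log2 ratio of hsa-mir-100 to hsa-mir-125b-1, at -4.69 against -5.27 to -5.19 in the others, a gap of 0.859 of the whole range. It was 1 of 15 sets of 4 control values searched, and chance marks about 1 in 20 such sets.

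Some siERH changes had opposite signs in the lines, and none of these differences was tested. Every HEK293E siERH library was below all controls and the K562 siERH-5 library above its siGFP library, for the miR-125b hairpins on TMM. On the deposited RPM the HEK293E groups overlapped for both miR-125b hairpins. There siERH-5 was above siGFP replicate 2, at 3341 against 2992 RPM (hsa-mir-125b-1) and 3526 against 3155 RPM (hsa-mir-125b-2). On the log2 scale with TMM the K562 change was 0.0984 for hsa-mir-125b-1 and 0.0772 for hsa-mir-125b-2, both with counting intervals that include 0. On library totals it was 0.38 (0.060 to 0.71) and 0.36 (0.043 to 0.68), both intervals above 0, beside a median of 0.37 over all 646 hairpins. The K562 change, which needs no scaling, was 0.4146 for the ratio of hsa-mir-99b to hsa-let-7e and 0.6969 for the ratio of hsa-mir-125b-1 to hsa-let-7a-2. On TMM the let-7 partners were at -0.57 (hsa-let-7e) and -0.60 (hsa-let-7a-2), beside -0.15 for hsa-mir-99b and 0.10 for hsa-mir-125b-1.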

How the results depend on the processing

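The members called lower with siERH went from 3 to 1 (hsa-mir-99a) on library totals, with limma, in replicate 2 libraries only and with siGFP alone as control, and ranged from 1 to 3 with each library left out. With siERH-3 they went from 3 to 1 on library totals and with limma, and ranged from 0 to 3 with a library left out. Library totals moved the median of all hairpins by 0.18 and limma by 0.19 (log2), and the lower share of the called hairpins went from 40.5% to 24.0% and 23.7%. With both a replicate block and removal of the GC trend, 1 member was called higher, hsa-mir-125a (0.38, edgeR adjusted p = 0.0489). In that setting 233 of 772 hairpins were called higher and 155 lower. With the replicate block 1 member was higher in siControl than in siGFP, where 72 of 730 hairpins were. Between the lines, members at least 2-fold lower in HEK293E went from 2 to 0 on totals and 1 at a minimum of 100 counts. Of all 745 hairpins, 21.2% were at least 2-fold lower in HEK293E on TMM and 10.5% on totals.

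Changes of sign concerned values that did not pass the main edgeR test or had none, though hsa-mir-125a passed in 1 other setting, given above. They were hsa-mir-99b with the GC trend removed (0.12, and 0.13 with the replicate block), hsa-mir-100 on totals (0.10), with limma (0.18), with the replicate block (0.044) and in replicate 2 (0.30), hsa-mir-125a with siControl alone (-0.089), and hsa-let-7c on totals (0.055), with limma (0.083), in replicate 2 (0.035) and with siGFP alone (0.072). With a library left out, hsa-mir-100 ranged from -0.20 to 0.15 and hsa-mir-125a from -0.041 to 0.29. With siERH-3 hsa-mir-100 was 0.064 on totals and 0.14 with limma, and ranged from -0.21 to 0.12 with a library left out. Between the lines, hsa-mir-99b was 0.0052 on totals, and hsa-let-7e and hsa-let-7a-2 went from -0.63 and -0.22 on TMM to 0.47 and 0.86 on totals. The cause of these changes was not tested.

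Over all hairpins the siERH calls, 16.2% of 773 lower and 184 higher, became 67 lower (totals), 66 (limma) and 63 with 82 higher (at least 100 counts, where fewer were tested), and ranged from 76 to 130 lower with a library left out. The siERH-3 counts of 87 and 145 became 48, 47 and 46 lower with 69 higher, 142 lower with the replicate block, and 19 to 102 lower and 42 to 152 higher with a library left out. siControl against siGFP gave 2 lower and 2 higher with DESeq2 and with no filter, 61 and 72 with the replicate block.

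With the replicate block the ratio differences were -0.43 (hsa-mir-99b to hsa-mir-125a, exact p = 0.111), -0.21 (hsa-mir-99a to hsa-mir-125b-2, exact p = 0.222) and 0.60 (hsa-mir-100 to hsa-mir-125b-1, exact p = 0.111, the smallest that 18 splits give). Another definition of the two-sided p, the share of splits with an absolute difference at least as large, was tried after the p-values above had been seen. It gave an exact p of 0.0286 for hsa-mir-99b to hsa-let-7e and for hsa-mir-125b-1 to hsa-let-7a-2, so these 2 were under 0.05 before adjustment by that definition only, and at an adjusted p of 0.110 over the 9 ratios neither passed. Left-out libraries and ratio settings changed no sign of the 9 ratios. Leave-one-out fits of siControl against siGFP and the settings of the let-7 ratios were also chosen after seeing the data.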
